A study of Arabidopsis thaliana with 31 samples.

Results

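Transcripts of DNA replication licensing genes were examined cell by cell in the *Arabidopsis thaliana* root. The 10 genes were chosen by name, as genes whose transcripts serve as a sign of S phase, and were *MCM2* (AT1G44900), *MCM3* (AT5G46280), *MCM4* (AT2G16440), *MCM5* (AT2G07690), *MCM6* (AT5G44635), *MCM7* (AT4G02060), *ORC1B* (AT4G12620), *CDT1A* (AT2G31270), *PCNA1* (AT1G07370) and *PCNA2* (AT2G29570), out of 32678 loci in the table. All 10 were found by locus, all had a value above 0 in at least 1 library, and no filter on low values was applied to them. There were 20 libraries of single quiescent center (QC) cells, 4 aliquots made by pooling QC cells, lysing them and splitting the lysate, 4 libraries of single stele cells isolated 16 h after the root tip was cut off, and 3 of stele cells isolated at 0 h. All plants were Col-0. QC cells carried *WOX5:GFP*, a reporter of the niche at the root tip, and the labels give them and the aliquots an age of 6 DAS. Stele cells carried *WOL:CRE-GR 35S:lox-CFP*, a dexamethasone-induced lineage mark that stays on in descendants of cells in which *WOL* was active, and were labelled 7 DAS. The stele is the inner vascular cylinder of the root, and the QC is a small group of slowly dividing cells that the stem cells of the root surround.

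Licensing is the step that allows each origin of replication to fire once per cell cycle. The origin recognition complex, of which ORC1B is a large subunit, marks the origin, CDT1A helps to load the MCM2 to MCM7 ring onto DNA before S phase, and the loaded ring is later activated as the replicative helicase. PCNA is not itself a licensing factor but the sliding clamp that holds DNA polymerases on the template during S phase. In plants, as in animals, many of these genes are transcribed at the passage from G1 to S phase under E2F transcription factors, whose sites resemble TTTCCCGC, and under the retinoblastoma-related protein RBR1. Roots keep dividing cells in the meristem, where such transcripts come and go with the cell cycle.

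The 250 bases before the annotated start of each gene were searched in the TAIR10.1 assembly for TTTCCCGC, TTTGGCGC, TTTGCCGC and TTTCGCGC on both strands, because transcription of these genes is known to involve such letters. Of the 10 promoters, 5 held a match, against 387 of 27443 promoters of annotated protein-coding genes (1.41%). A match was also held by 5 of 13 other licensing factors (38.5%), 5 of 25 genes of helicase activation and of the fork (20%) and 2 of 7 genes of nucleotide supply and chromatin assembly (28.6%). It was held by 1 of 6 E2F and RBR regulators (16.7%), 0 of 5 histone H3.1 genes and 0 of 10 genes of G2 and M phase. The stretches around the matches are shown because all 5 genes with a match encode MCM subunits. Each is written 5′ to 3′ on the strand of its gene, from the RefSeq annotation and sequence of TAIR10.1, with the motif, or its reverse complement, in capitals.
MCM2, chr1:16970180-16970213, plus strand: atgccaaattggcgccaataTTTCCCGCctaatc
MCM3, chr5:18773849-18773896, minus strand: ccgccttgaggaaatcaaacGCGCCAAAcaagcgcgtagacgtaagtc
MCM4, chr2:7130737-7130784, minus strand: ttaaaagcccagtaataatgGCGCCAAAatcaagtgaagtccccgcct
MCM5, chr2:3527501-3527539, minus strand: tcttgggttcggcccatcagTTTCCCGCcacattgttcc
MCM6, chr5:18010686-18010733, minus strand: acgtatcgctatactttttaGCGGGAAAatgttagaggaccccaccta
*MCM2*, *MCM5* and *MCM6* held TTTCCCGC, which was found in 0.619% of all promoters, and *MCM3* and *MCM4* held TTTGGCGC, found in 0.361%. No promoter of the 10 held more than 1 match to the 4 strings searched. The match in *MCM2* began 14 bases before the start, that in *MCM5* 19 bases and that in *MCM4* 35 bases before it, while the match in *MCM3* lay farthest away, beginning 170 bases before the start. *MCM7*, *ORC1B*, *CDT1A*, *PCNA1* and *PCNA2* held none of these letters in this window. A match describes the letters only.

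Values are given in fragments per 1000000 reads on annotated loci (FPM), and a gene is called listed where its value is above 0. Library totals were 12071810 to 115114702 reads in QC cells, 83718007 to 127775758 in aliquots, 23387890 to 35185668 in stele cells at 16 h and 11637897 to 28121886 in stele cells at 0 h. In 21 of the 31 libraries every listed locus was also listed in 1 other library of the same cell type, so that a gene at 0 in that first library was at 0 in all libraries of its set. The QC sets were led by cell 14 (with cells 19 and 20), by cell 1 (with cells 8 to 13) and by cell 2 (with cells 3 to 7), while cells 15 to 18 belonged to none, and the aliquots and each stele time formed 1 set each. Zeros within a set are therefore not separate observations. QC cells 15 and 16 were far closer to each other than other pairs of QC cells were, as were QC cells 17 and 18 (median chi-square per gene of 2.38 and 2.41, against 184 for the next closest pair). Both pairs still differed by more than counting error alone. As a check of the labels, *WOX5*, the gene behind the QC reporter, was at 124 FPM or more in all 20 QC cells and 4 aliquots. In the stele, *WOX5* had 5.24 FPM in cell 1 at 0 h and 1.51 FPM in cell 1 at 16 h, and was at 0 in the other cells. *WOL*, which encodes a cytokinin receptor of the stele, was at 0 in all QC cells and aliquots and above 0 in all 7 stele cells. Markers of endodermis (*CASP1*, *CASP2*) and cortex (*CO2*) were at 0 in all libraries. Because each library is 1 cell and no plant is named for a cell, no test of a difference was made, and groups are described by their values, medians and ranges.

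**Figure D1:**
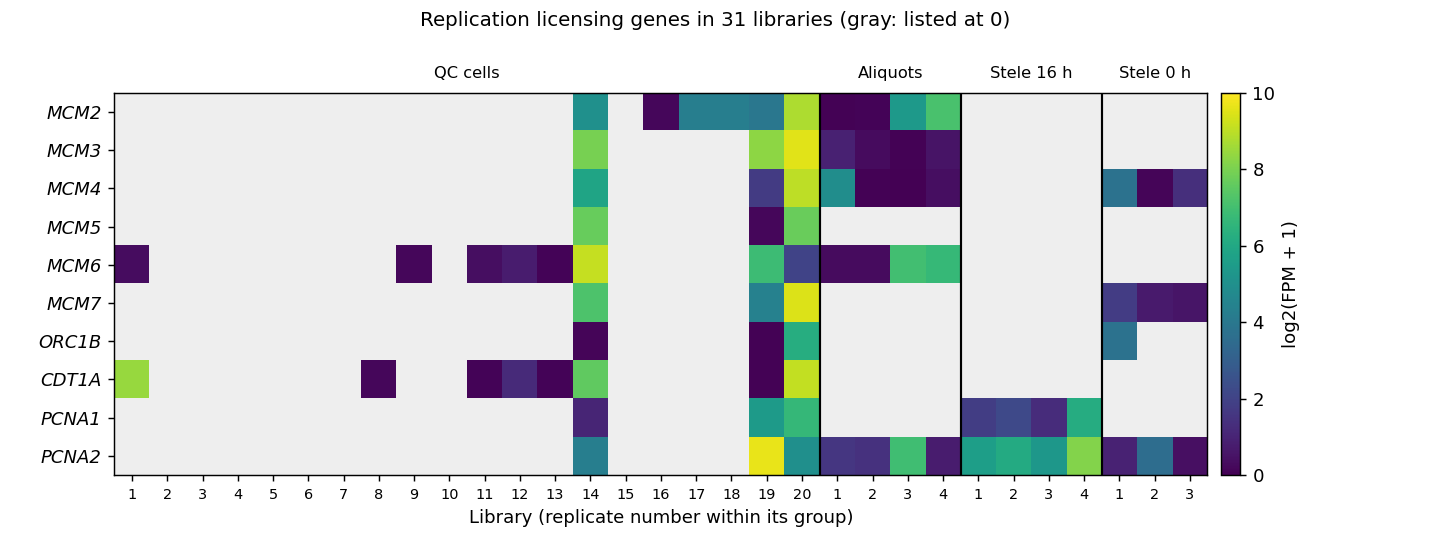
Level of the 10 genes (rows) in the 31 libraries (columns, numbered by replicate within QC cells, aliquots and stele cells of 16 h and 0 h), as log2(FPM + 1), with gray for a value of 0. QC cells 14, 19 and 20 are the 3 columns filled from top to bottom, and in the stele *PCNA2* is the row filled in all 7 cells.

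The licensing genes were concentrated in 3 of the 20 QC cells. Cells 14, 19 and 20 each listed 10 of the 10 genes, while the other 17 QC cells listed 0 to 2 of them. Over all QC cells, 43 of 200 values were above 0, and of these 30 of 30 possible values fell in cells 14, 19 and 20 and 13 of 170 in the others. At 10 FPM or more stood 15.6%, 13.6% and 13.0% of all loci in cells 14, 19 and 20, and 4.43% to 13.2% in the other QC cells. For the 10 genes the counts at this level were 23 of 30 and 3 of 170. The 3 values in the other cells were *CDT1A* in QC cell 1 (350 FPM) and *MCM2* in QC cells 17 and 18 (18.5 and 18.4 FPM), and the last 2 come from the nearly alike pair. QC cells 2 to 7, 10 and 15 listed none of the 10 genes. The median over QC cells was 1 gene, the range 0 to 10. Above 0 in at least 1 library of a group were 10 of the 10 genes in QC cells (43.1% of all loci), 5 in aliquots (34%), 2 in stele cells at 16 h (41.2%) and 4 in stele cells at 0 h (40%).

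QC cells 14, 19 and 20 were picked after the values of these same genes were seen. The shares of loci set beside them here therefore describe the pattern and cannot test it. For all 10 genes the highest QC value was in QC cell 14, 19 or 20, where the same held for 36.5% of the 14083 loci above 0 in any QC cell and for 34.7% of the 11566 loci that reached 10 FPM in one. Of the 10 genes, 10 were above 0 in both QC cells 14 and 20, against 67.5% of those 14083 loci, and 7 were also at 0 in the other 17 QC cells, against 11.8%. These 7 were *MCM3*, *MCM4*, *MCM5*, *MCM7*, *ORC1B*, *PCNA1* and *PCNA2*. At 10 FPM or more in both QC cells 14 and 20 stood 7 of the 10 genes, against 17.5% of loci. QC cell 19 was no part of these rules for QC cells 14 and 20, but it was picked by the values of the same genes. It held 6 of the 10 genes at 10 FPM or more, against 13.6% of all loci. *MCM4*, *MCM5*, *ORC1B* and *CDT1A* were under that level in it. As the list of QC cell 20 lies within that of QC cell 14, above 0 in both means above 0 in QC cell 20. None of the 10 was above 0 in 10 or more QC cells, a count that 18.3% of all loci reached.

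These 3 cells also differed from most QC cells in depth and in the number of loci. They had 115114702, 100463749 and 93606126 reads (cells 14, 19 and 20) and listed 33.8%, 29.0% and 29.1% of all loci, against 14.2% to 25.8% in the other QC cells. No other QC cell reached this depth, while the aliquots were of this order. QC cell 16 had 72145275 reads, listed 25.8% of loci and listed 1 of the 10 genes, *MCM2* at 0.125 FPM. QC cell 18 had 46616285 reads and listed 1 gene. Aliquots had 83718007 or more reads, listed 29.9% to 34.0% of loci and listed 5 of the 10 genes. With every library scaled to the lowest total and 3 or more scaled reads required, 2 QC cells listed all of *MCM2* to *MCM7*, against 3 at full depth. Such scaling does not repeat the authors' removal of genes with less than 200 bp covered. The part of depth and of the shared set in the pattern was not tested.

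**Figure D2:**
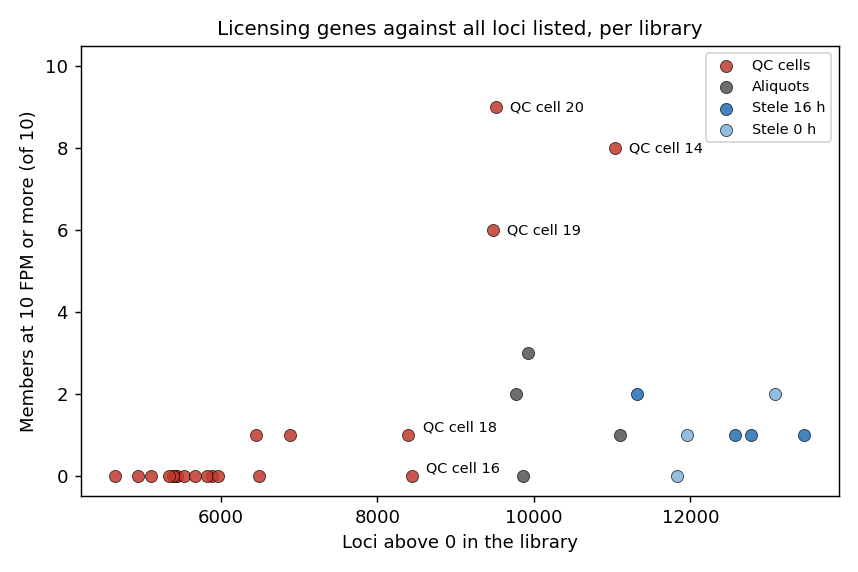
Number of the 10 licensing genes at 10 FPM or more (vertical axis) against the number of loci above 0 (horizontal axis) in each library, 1 point per library, colored by group. The points of QC cells 14, 19 and 20 stand at 8, 6 and 9 genes. Aliquots have more loci than QC cells 19 and 20, and stele cells have more than any QC cell, and their points stand at 0 to 3.

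The 6 subunits of the MCM helicase work as a single ring with 1 copy of each, and their transcripts were listed together in QC cells 14, 19 and 20 only. This is 3 of 20 QC cells, or 15.0% (95% exact Clopper-Pearson interval 3.21% to 37.9%, which covers counting error only). The interval treats the cells as independent, which their nested lists go against, and of the 7 QC cells whose list lies within no other, 1 listed all 6 subunits. The summed level of *MCM2* to *MCM7* was 1230 FPM in QC cell 14, 462 FPM in QC cell 19 and 2621 FPM in QC cell 20. It was 18.5 and 18.4 FPM in QC cells 17 and 18 and under 1 FPM in the other 15 QC cells. QC cell 14 held all 6 subunits at 10 FPM or more, QC cell 20 held 5 and QC cell 19 held 4.

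The subunits did not keep a fixed proportion in these cells. *MCM2* had 31.8, 14.5 and 431 FPM in QC cells 14, 19 and 20. *MCM3* had 244, 312 and 754 FPM and was the only subunit above 200 FPM in all 3. *MCM4* had 55.6, 2.31 and 517 FPM. The highest value of these subunits was in QC cell 20 each time. *MCM5* had 204, 0.119 and 207 FPM in the same cells. *MCM6* had 550, 114 and 3.04 FPM. *MCM7* had 145, 19.8 and 709 FPM. *MCM6* thus had its lowest value of the 3 in QC cell 20, where *MCM2*, *MCM4* and *MCM7* were highest. All of them were lower in QC cell 19 than in QC cell 14. Aliquots of 1 lysate differed 548-fold for *MCM6* and 2508-fold for *MCM2*, which limits what such proportions show.

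Per kilobase of the longest annotated transcript, which allows levels of different genes to be set side by side, the order of the genes changed from cell to cell. In QC cell 20 *MCM7* led with 272 FPM per kb, followed by *MCM3* with 252 and *CDT1A* with 245, and *MCM6* was last with 1.07. In QC cell 14 *MCM6* led with 194 FPM per kb, followed by *CDT1A* with 86.0 and *MCM3* with 81.6. In QC cell 19 *PCNA2* led with 679 FPM per kb, ahead of *MCM3* with 104 and *MCM6* with 40.01. There is 1 library per cell, so that these orders have no replicate within a cell. *MCM3* alone stood among the first 3 in each of the 3 cells.

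Outside these 3 cells, MCM transcripts in QC cells were few. *MCM6* was above 0 in QC cells 1, 9, 11, 12 and 13 at 0.0626 to 0.674 FPM, all within the set led by cell 1, and no QC cell of that set reached 1 FPM. *MCM2* was above 0 in QC cells 16, 17 and 18. *MCM3*, *MCM4*, *MCM5* and *MCM7* were at 0 in all 17.

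*CDT1A* and *ORC1B*, which act before the helicase is loaded, were uneven within the same 3 cells. *CDT1A* had 187 FPM in QC cell 14, 0.0398 FPM in QC cell 19 and 534 FPM in QC cell 20. *ORC1B* had 0.0869, 0.0299 and 73.2 FPM in these cells. QC cell 19, which held *MCM3*, *MCM6* and *PCNA2* above 100 FPM, was thus under 0.1 FPM for both genes. Outside the 3 cells the highest QC value of any member was that of *CDT1A*, with 350 FPM in QC cell 1, where no MCM subunit passed 0.243 FPM. In QC cells 8, 11, 12 and 13, of the same set, it stood at 0.122, 0.0585, 1.31 and 0.0626 FPM. Only *ORC1B* shares an identical stretch of read length with another gene. Of 2790 windows of 50 bases in its longest transcript 53 (1.90%) also occur in *ORC1A*, so reads in those stretches cannot be assigned to 1 of the pair.

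*PCNA1* and *PCNA2* encode the clamp and share no identical window of 50 bases. The authors aligned reads in local mode and counted those with several locations in parts. Whether reads were shared between these genes through near matches was not tested. *PCNA1* had 1.08 FPM in QC cell 14, 43.1 FPM in QC cell 19 and 100 FPM in QC cell 20. *PCNA2* had 18.6, 803 and 30.98 FPM in the same cells. Both were at 0 in the other 17 QC cells. In QC cell 19 *PCNA2* was the highest of all values of the 10 genes in QC cells, and in QC cells 14 and 19 it exceeded *PCNA1* also per kilobase (15.7 against 0.953 and 679 against 38.1 FPM per kb), whereas in QC cell 20 *PCNA1* was higher (88.7 against 26.2 FPM per kb).

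Many of the lowest values stood beside high ones of the same set. Of the 310 values of the 10 genes in all libraries, 30 were above 0 and under 1 FPM, and for 18 of these 30 another library of the same set held the same gene at 10 FPM or more. *CDT1A* in QC cell 19 and in cells 8, 11 and 13 is of this kind, as is *MCM5* in QC cell 19. The part of sharing between libraries of a set in such values was not tested.

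The 4 aliquots come from 1 lysate and therefore show the technical spread of these genes. All 4 listed the same 5 genes, *MCM2*, *MCM3*, *MCM4*, *MCM6* and *PCNA2*, and none listed *MCM5*, *MCM7*, *ORC1B*, *CDT1A* or *PCNA1*. *MCM2* had 0.0548, 0.0597, 40.6 and 137 FPM in aliquots 1 to 4. *MCM6* had 0.230, 0.227, 124 and 102 FPM. Both were high in aliquots 3 and 4 and near 0 in aliquots 1 and 2. *MCM4* had 28.8 FPM in aliquot 1 and 0.0358, 0.00783 and 0.296 FPM in the other 3. *PCNA2* had 122 FPM in aliquot 3 and 2.01, 1.68 and 0.712 FPM in aliquots 1, 2 and 4. *MCM3* stayed under 1 FPM in all, with 0.909, 0.239, 0.0391 and 0.444 FPM. The highest and the lowest aliquot differed 2508-fold for *MCM2*, 548-fold for *MCM6*, 172-fold for *PCNA2* and 23.2-fold for *MCM3*, and for *MCM4* the lowest value stood for a single read. A gene above 100 FPM in 1 aliquot could thus be under 1 FPM in another part of the same lysate. For the 5 genes at 0 in all aliquots no such spread could be measured.

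QC cells and aliquots were next compared, the aliquots serving as the technical reference. Beside the MCM sums of QC cells given above, those of aliquots 1 to 4 were 29.98, 0.561, 165 and 241 FPM. The difference of group medians of log2(summed FPM + 1), QC cells minus aliquots, was -6.03 (0.13 in QC cells and 6.16 in aliquots). A sum over genes is not the same measure as a difference of single loci. The median difference of the 10 single genes was -0.11, against -0.59 over the 15013 loci listed in either group. Of the 10 genes, 0 were higher and 3 were lower in QC cells by at least 1 on the log2(FPM + 1) scale of medians (*MCM2*, *MCM6* and *PCNA2*), against 3.32% and 44.2% of loci. The values overlapped for all 10 genes, since the highest QC value exceeded the highest aliquot for each, while 0.0666% of loci were higher and 3.28% lower in QC cells with no overlap. Without aliquot 3 or without aliquot 4 the count of lower genes was 1 in place of 3.

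In stele cells the licensing genes gave another pattern, and only 5 of the 10 were above 0 in any of the 7 cells. *MCM2*, *MCM3*, *MCM5*, *MCM6* and *CDT1A* were at 0 throughout, although these cells listed 34.6% to 41.2% of all loci, more than any QC cell. Stele cells at 16 h each listed the same 2 genes, *PCNA1* and *PCNA2*, and those at 0 h listed 4, 3 and 3. Above 0 in all 4 cells at 16 h stood 2 of the 10 genes, against 33.4% of loci, and in all 3 cells at 0 h 3 of the 10, against 35%.

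*PCNA2* had 48.3, 68.4, 38.7 and 284 FPM in stele cells at 16 h, against 0.945, 10.8 and 0.344 FPM in stele cells at 0 h. The groups did not overlap, and the difference of medians was 4.91 on the log2(FPM + 1) scale. *PCNA1* had 2.51, 3.61, 1.39 and 71.8 FPM at 16 h and was listed at 0 in all 3 cells at 0 h. Its groups did not overlap either. Stele cell 4 at 16 h was the highest for both clamp genes. The same cell had 332 FPM of *SUC2*, a sucrose transporter gene of phloem companion cells, against 0 to 4.82 FPM in the other 6 stele cells, while the other phloem marker, *APL*, was at 0 in all 7. Without that cell, *PCNA2* still did not overlap, at 38.7 to 68.4 FPM at 16 h against 0.344 to 10.8 FPM at 0 h. The part of phloem identity in the values of the fourth cell was not tested.

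The helicase genes *MCM4* and *MCM7* went the other way. *MCM4* was listed at 0 in all 4 stele cells at 16 h, against 12.6, 0.107 and 1.57 FPM in those at 0 h. *MCM7* was also at 0 at 16 h, against 2.41, 0.640 and 0.492 FPM at 0 h. *ORC1B* was at 0 at 16 h, and at 0 h it had 12.6 FPM in the first cell and 0 in the other 2. The MCM sum was therefore 0 FPM in every cell at 16 h, against 15.0, 0.747 and 2.07 FPM at 0 h, a difference of medians of -1.62 on the log2(summed FPM + 1) scale. For single genes, the median difference was 0 over the 10 genes and 0 over the 15156 loci listed in either group.

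Of the 10 genes, 5 were among the 15156 loci listed at either time, and the shares given here are of those loci. The other 5 were at 0 in every stele cell and could not be called. Of the 5 listed genes, 2 were higher at 16 h by at least 1 on the log2(FPM + 1) scale of medians (*PCNA1* and *PCNA2*). In the other direction, 1 was lower (*MCM4*), against 25.6% of loci higher and 28.4% lower. By absence of overlap, 2 of the 5 were higher and 2 lower (*MCM4* and *MCM7*), against 10.6% and 12.6% of loci. As the cells of each time form 1 set, the zeros of *MCM4* and *MCM7* at 16 h follow from the first library of that time. Without cell 1 at 0 h the count past the limit was 2 in place of 3, with 0 genes lower, as *MCM4* no longer passed. Without cell 2 or without cell 3 at 0 h the count was 5, with 3 genes lower. The extra genes were *MCM7* and *ORC1B*, whose medians at 0 h then rest on the first cell and 1 other.

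**Figure D3:**
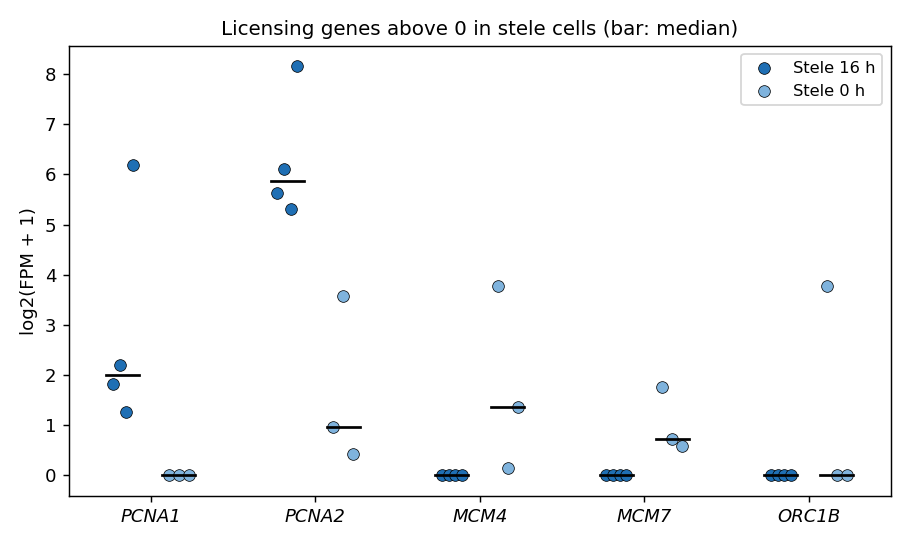
Level of the 5 licensing genes that were above 0 in any stele cell, as log2(FPM + 1), with 1 point per cell and a bar at the median, for 4 cells at 16 h (left, dark blue) and 3 cells at 0 h (right, light blue). *PCNA1* and *PCNA2* lie higher at 16 h with no overlap, and *MCM4*, *MCM7* and *ORC1B* lie at 0 at 16 h.

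QC cells and stele cells at 0 h were compared to set the niche beside vascular cells taken directly after the cut. Each of the 10 genes had a median of 0 FPM over QC cells, and the median MCM sum was 0.0937 FPM in QC cells against 2.07 FPM in stele cells at 0 h (difference of medians -1.49 on the log2(summed FPM + 1) scale). For single genes, the median difference was 0 over the 10 genes and -1.90 over 16270 loci. By medians 0 genes were higher and 1 was lower in QC cells (*MCM4*), against 4.71% and 58.3% of loci. All 10 genes overlapped between these groups, where 0.166% of loci were higher and 14.5% lower in QC cells with no overlap, and each reached a higher value in QC cells than in any stele cell at 0 h. The count of lower genes was 3 without stele cell 2 at 0 h and 4 without stele cell 3.

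The other genes of replication were followed in the same libraries to see whether the 3 QC cells differed in them too. Of 13 other licensing factors, QC cells 14, 19 and 20 listed 7, 5 and 5, against 0 to 2 in the other 17 QC cells. Of the 8 factors above 0 in a QC cell, 6 had their highest QC value in 1 of the 3 cells, against 36.5% of loci. While above 0 in QC cells 14 and 20, 5 were at 0 in the other 17, against 11.8% of loci. Both shares are of the 14083 loci above 0 in a QC cell. *ETG1*, whose product binds the MCM complex, had 218, 0.328 and 6.72 FPM in QC cells 14, 19 and 20 and 0 in the other 17. *ORC1A* had 0.208, 13.8 and 261 FPM there and 0 in the other 17. *ORC4* had 54.4 FPM in QC cell 14, 0 in QC cell 19 and 0.0748 FPM in QC cell 20. *ORC2* reached 148 FPM in QC cell 20. *ORC3* was an exception, with 68.1 FPM in QC cell 14, against 225 and 236 FPM in QC cells 17 and 18. *ORC6*, *CDT1B* and *MCM10* were at 0 in all 31 libraries, so that no library listed all of these factors.

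Genes of helicase activation and of the fork were listed more widely. Of the 25, QC cells 14, 19 and 20 listed 21, 17 and 18, against 2 to 9 in the other QC cells, with summed levels of 1715, 665 and 2163 FPM against 0.142 to 781 FPM. QC cell 19 was thus within the range of the other cells. Of the 22 genes above 0 in a QC cell, 10 had their highest value in the 3 cells, against 36.5% of the 14083 loci above 0 in a QC cell. Genes of DNA polymerase alpha, the primase complex that starts each new strand, were picked after their values were seen. *ICU2*, its catalytic subunit, had 104, 0.00995 and 122 FPM in QC cells 14, 19 and 20, and *POLA2* had 284 and 414 FPM in QC cells 14 and 20, both with 0 in the other 17 cells. *POLA4* did not follow them, with 133, 0 and 6.13 FPM in QC cells 14, 19 and 20 and 395 FPM in QC cell 7. The clamp loader gene *RFC4* was not confined to them, with 290, 357 and 332 FPM in QC cells 14, 19 and 20 and 226 FPM in both QC cells 17 and 18. *POLD4* had 0.860, 96.9 and 23.6 FPM in QC cells 14, 19 and 20 and 102 and 116 FPM in QC cells 8 and 9. *CDC45*, which joins the MCM ring in the active helicase, was at 0 in all QC cells and aliquots and was above 0 in all 7 stele cells, at 0.257 to 4.41 FPM at 16 h and 0.295 to 33.9 FPM at 0 h.

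**Figure D4:**
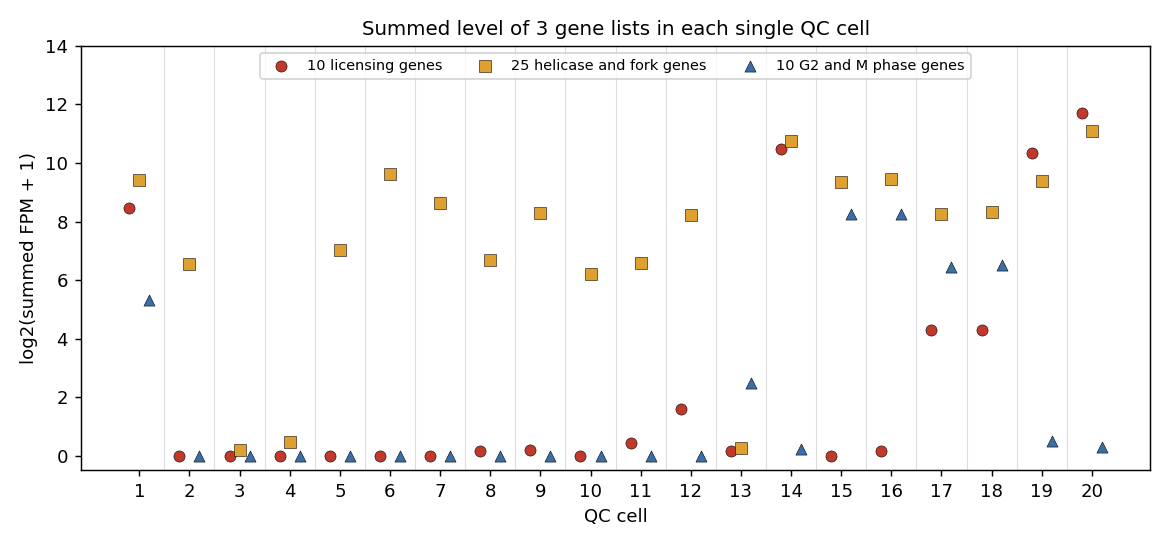
Summed level of 3 gene lists in each of the 20 QC cells, as log2(summed FPM + 1), with 1 point per list and cell. The 10 licensing genes (red) are high in QC cells 14, 19 and 20 and in QC cell 1, where *CDT1A* carries the sum, while the 10 G2 and M phase genes (blue) are near 0 in QC cells 14, 19 and 20 and high in QC cells 15 and 16.

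Genes of G2 and M phase were nearly absent from the 3 cells, as they were from most other QC cells. Their summed level was 0.165, 0.408 and 0.224 FPM in QC cells 14, 19 and 20, which listed 3, 3 and 2 of the 10. In the other QC cells it reached 308 and 307 FPM in the nearly alike QC cells 15 and 16, 85.6 and 91.2 FPM in the nearly alike QC cells 17 and 18, 39.0 FPM in QC cell 1 and 4.64 FPM in QC cell 13, and it was 0 in the remaining 11. *CDKB2;1*, which encodes a cyclin-dependent kinase of G2 and mitosis found in plants, had at most 0.0869 FPM in QC cells 14, 19 and 20, against 264 and 259 FPM in QC cells 15 and 16. *AUR1*, an Aurora kinase gene, was at 0 in QC cells 14, 19 and 20, against 85.5 and 86.4 FPM in QC cells 17 and 18. All 4 aliquots held these genes together with MCM transcripts, at 128 to 802 FPM in sum, with *CDKB2;2* at 493, 151, 90.7 and 114 FPM. The cyclins *CYCB1;1* to *CYCB1;4* and *CDC20.1* were at 0 in all 31 libraries.

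Histone H3.1 genes, whose products are built into newly made chromatin, did not follow the licensing genes. The 3 cells listed 5 of the 5, with summed levels of 117, 538 and 122 FPM, but QC cells 17 and 18 also listed 5, and the highest sum of all was 875 FPM in QC cell 6, which listed none of the 10 licensing genes. *HTR13* was above 0 in all QC cells except QC cell 15, with a median of 21.5 FPM, against 3.1 FPM in stele cells at 0 h. *HTR3* and *HTR9* were highest in QC cell 19, with 214 and 247 FPM. These genes are short and closely similar to each other, so that reads may be split among copies.

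Genes of nucleotide supply and chromatin assembly gave a mixed picture. *RNR1*, the large subunit of ribonucleotide reductase, had 235, 150 and 671 FPM in QC cells 14, 19 and 20, and 178 FPM in QC cell 8 was the highest value elsewhere. *RNR2A*, a small subunit gene, was listed by every QC cell and had a median of 158 FPM there, against 0.516 FPM in stele cells at 0 h, and stood at 154, 60.9 and 70.6 FPM in QC cells 14, 19 and 20. *FAS2*, a subunit of the chromatin assembly factor CAF-1, had 89.3 and 30.2 FPM in QC cells 14 and 20 and was at 0 in the other 18 QC cells. It was named after its values were seen. *TSO2* and *TK1A* were at 0 in all QC cells and above 0 in all 3 stele cells at 0 h.

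Regulators of the E2F and RBR pathway showed no common level in the 3 cells. *E2FA*, an activating E2F, had 0.0261, 0.00995 and 260 FPM in QC cells 14, 19 and 20. *E2FB* had 2.79, 416 and 4.66 FPM there, and its highest QC value was 1279 FPM in QC cell 10, which listed none of the 10 licensing genes. *RBR1* had 0.104, 0.946 and 70.1 FPM in the 3 cells and 274 and 284 FPM in QC cells 17 and 18. *DPB*, which encodes a dimerization partner of E2F, had 0.825, 126 and 44.8 FPM in the 3 cells and was at 0 in 16 of the other 17. Of the 6 genes, 5 were above 0 in a QC cell, and 2 of these had their highest QC value in these cells. The share was 36.5% over the 14083 loci above 0 in a QC cell. Of the licensing genes, by whose values the cells were picked, it was 10 of the 10.

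Between stele cells at 16 h and 0 h the wider lists were also mixed. Of the 25 fork genes, 9 were higher at 16 h by at least 1 on the log2(FPM + 1) scale of medians and 2 were lower. The shares over the 15156 loci listed at either time, which leave out genes at 0 in every stele cell, were 25.6% and 28.4%. *LIG1*, the DNA ligase that seals Okazaki fragments, had 24.7, 32.1, 7.88 and 52.5 FPM at 16 h against 6.10, 0.0711 and 0.148 FPM at 0 h, with no overlap. *POLD1*, the catalytic subunit of DNA polymerase delta, had 24.5, 39.9, 35.5 and 37.3 FPM at 16 h against 30.2, 0.178 and 0.344 FPM at 0 h and overlapped through the first cell at 0 h. Among other licensing factors 2 were higher and 2 lower. *MCM9* was above 0 in all 4 cells at 16 h and at 0 at 0 h, while *ETG1* and *ORC1A* were at 0 at 16 h and above 0 in all 3 cells at 0 h. Of the 7 genes of nucleotide supply and chromatin assembly, 0 were higher and 4 lower at 16 h, among them *TK1A*, at 0 in all cells at 16 h against 20.0, 58.9 and 5.07 FPM at 0 h. A gene at 0 in the first library of a time was at 0 in the others of that time, since their lists are nested in it.

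The loci whose level was most like the MCM sum were sought over the 20 QC cells among the 5995 loci above 0 in at least 10 of them. The highest Spearman correlations of log2 values were 0.951 for *AT3G58610*, annotated as ketol-acid reductoisomerase of amino acid synthesis, 0.947 for *AT3G15380*, a choline transporter-like gene, 0.940 for *AT3G12390*, an alpha subunit gene of the nascent polypeptide-associated complex, and 0.931 for each of the alpha tubulin genes *TUA4* and *TUA2*, which are closely similar and may share reads. The points share sets, depth and many zeros, so that these values only describe the 20 libraries. *AT3G58610* had 299, 433 and 355 FPM in QC cells 14, 19 and 20, and its median was 0.0610 FPM in the other 17, with 120 FPM as the highest. The limit of 10 cells left out all 10 licensing genes themselves, which were above 0 in at most 8 QC cells.

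QC markers were present in the 3 cells as in the other QC cells. *WOX5* had 2235, 1064 and 1931 FPM in QC cells 14, 19 and 20, and all 5 QC markers (*WOX5*, *SCR*, *PLT1*, *PLT2* and *BBM*) were above 0 in each, as they were in all other QC cells. The stele-defining genes *WOL*, *SHR* and *TMO5* were at 0 in the 3 cells. *LHW*, also on the stele list, had 0.773, 111 and 45.1 FPM in QC cells 14, 19 and 20, and it had 380 and 672 FPM in QC cells 9 and 11, which held under 1 FPM of the 10 licensing genes in sum. *GL2*, an epidermal gene, had 1.40 FPM in QC cell 14 and was at 0 in the other 19 QC cells, and markers of root cap, endodermis, cortex and phloem were at 0 in all 20.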

How the data were processed

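cDNA of single root cells and of aliquots was amplified and sequenced as 50 base single-end reads. Reads were mapped by the authors with Bowtie2 against TAIR10. They summed those on exons of each gene, removed genes with less than 200 bp covered, normalized to depth and deposited log2 values. A listed 0 can therefore be a removed gene, and no limit was set on zeros. Each deposited log2 value is log2(reads × a factor per library + 1). The factor was recovered from the spacing of low values, and all values under 1000 reads came out whole within 0.05 reads. Reads with several locations were counted in parts by the authors, so that a step may be less than 1 read. FPM are reads per 1000000 over 32678 loci, and 2 reporter sequences were left out of totals. The number of unused columns was 0.

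Groups followed the labels. QC cells came from several batches that the labels do not assign. A group of cells without named plants was treated as 1 sample, and no test was run. Calls were differences of group medians of log2(FPM + 1) of at least 1 (pseudocount 1), set beside the same share of all loci. The named genes were the 10 members, the 3 largest differences of each list and comparison, where the text had room for them, the 5 loci nearest to the MCM sum, and *WOX5*. Others were named after their values were seen. A marker gene of the stele list is not reported here. Members, lists and rules were chosen with earlier results of these data known. Symbols, transcripts and promoters came from RefSeq TAIR10.1, not the authors' copy of TAIR10, and all coordinates are of TAIR10.1.

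Alternatives were listing at 1 or 10 FPM, scaling to the lowest total, other pseudocounts, median ratio scaling, a mean of at least 10 FPM, alike pairs counted once, nested cells left out, and omission of single stele cells and aliquots. Tools were pandas 2.3.3, numpy 2.4.6, matplotlib 3.10.9 and scipy 1.17.1 under Python 3.11.15. The computation was tested on simulated data.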

Additional observations from a re-analysis of the deposited data

Results flagged for a closer look

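Among 8 sets of 4 libraries with values above 0, 2 had 1 library far from the other 3. Dixon's ratio, the gap of that library to its neighbor over the whole range on the log2(FPM + 1) scale, was 0.926 for *MCM4* in aliquots, where aliquot 1 had 28.8 FPM and the others at most 0.296 FPM. It was 0.868 for *PCNA2* in aliquots, where aliquot 3 had 122 FPM and the others at most 2.01 FPM. Both passed the 95% critical value for 4 samples, which chance passes in about 1 of 20 groups. On the FPM scale itself the ratio also passed for *PCNA1* (0.969) and *PCNA2* (0.879) in stele cells at 16 h, through cell 4. The aliquots are parts of 1 lysate.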

How the results depend on the processing

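No paired analysis was possible because the results come from no test and replicate numbers name cells only. Of 98 values under other settings, 78 moved by less than 1 SD between libraries (a count: by no more than 1.5 times) and 20 moved further. Only the differences of the MCM sum have a direction, and 0 of them changed it. For stele cells at 16 h against 0 h it could not change, since every MCM sum at 16 h was 0. With a gene listed at 1 FPM or more, the median number listed was 2 in aliquots (5 above 0) and 1 in stele cells at 0 h (3 above 0). At 10 FPM or more it was 1.5 in aliquots, 1 in stele cells at 16 h (2 above 0) and 1 at 0 h, and 1 QC cell (cell 14) held all of *MCM2* to *MCM7*. Scaling to the lowest total gave 3 in aliquots. Under these 3 settings the median in QC cells was 0, against 1 above 0. With cells nested in another left out, 1 QC cell listed all 6 subunits, and without QC cells 14, 19 and 20 (chosen after seeing the data) 0 listed 5 or more members. Genes past the limit in QC cells against stele cells at 0 h were 3 with a pseudocount of 0.1 and 0 with 10, against 1. In stele cells at 16 h against 0 h they were 1 with a pseudocount of 10, against 3, and the MCM sum differed by -4.44 with 0.1, -0.27 with 10 and -0.71 without the subunit that gives most of it, against -1.62. For QC cells against stele cells at 0 h it differed by -3.50 with 0.1 and -0.26 with 10, against -1.49, and against aliquots by -3.05 with 10, against -6.03. In QC cells against aliquots they were 5 with 0.1, against 3. Leaving out 1 library gave 1 to 4, 2 to 5 and 1 to 3 genes past the limit in these comparisons, and differences of the MCM sum of -2.68 to -1.08, -2.81 to -1.21 and -7.25 to -4.83. Median ratio scaling moved the median over all loci to -1.58 for QC cells against stele cells at 0 h (from -1.90) and to -0.23 for QC cells against aliquots (from -0.59), and left the counts of members at 0 and 1, and 0 and 3. The loci called were 766 higher and 9484 lower, and 499 higher and 6636 lower, and with this scaling 1088 and 9089, and 1024 and 5627. The causes were not tested. Depth, sets of nested lists and the spread of aliquots limit what single values show.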
